A study of Homo sapiens with 6 samples.

Results

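Aminoacyl-tRNA synthetase genes were examined, 36 in all, of the 26255 gene symbols in the files. The members were taken by symbol, 20 as cytosolic enzymes and 16, whose symbols end in ARS2, as mitochondrial enzymes. All 36 were found, and all 36 averaged 1 FPKM or more across the 6 libraries, as 12203 genes did. FPKM is the number of reads of a gene divided by its exon length and by the size of the library.

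The libraries were made from HCT116, a human cell line derived from a colorectal carcinoma. The 3 groups, of 2 libraries each, were parent cells, cells with siLINC01534-1 and cells with siLINC01534-2. Both siRNAs were designed against LINC01534, a long noncoding RNA, and the study asked which genes change when it is silenced. The siRNAs were delivered with a lipid reagent and no transfection of the parent cells is described, so the effect of transfection and that of the siRNAs cannot be told apart. The labels number 2 libraries per group without naming separate cultures, so the p-values measure only the spread between these libraries.

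Aminoacyl-tRNA synthetases join each amino acid to its tRNA, the step that gives the genetic code its meaning. The cytosolic enzymes supply the ribosomes of the cytoplasm, and a separate set, also encoded in the nucleus and imported, supplies the ribosomes of the mitochondrion. GARS and KARS, for glycine and lysine, serve both compartments from single genes. Class I and class II enzymes have unrelated catalytic folds. In animal cells, several cytosolic enzymes are held in a multisynthetase complex by the scaffold proteins AIMP1, AIMP2 and EEF1E1. Many cytosolic synthetase genes are known targets of ATF4, the transcription factor that is made when eIF2α is phosphorylated in ER stress or amino acid shortage.

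LINC01534 itself was examined first. The parent libraries held 0.285 and 0.571 FPKM. It was listed at 0 and at 0.283 FPKM in the libraries labelled siLINC01534-1 and at 0.660 and 0.551 FPKM in those labelled siLINC01534-2. These values stand for very few reads, so a fall of LINC01534 could not be checked at this depth, and groups go by their labels here. Low values move in steps of 1 read, from which the depth was estimated at 8660000 to 10350000 reads per library. The epithelial markers EPCAM, KRT8, KRT18 and CDH1 ranged from 23.5 to 1730 FPKM over all libraries. Of 4 markers of other cells, PTPRC, COL1A2 and PECAM1 did not exceed 0.0463 FPKM, and COL1A1 was at 3.02 to 5.79 FPKM, with both parent libraries the lowest.

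In the parent cells the cytosolic genes had the higher levels. The median over the 20 cytosolic genes was 88.7 and 89.8 FPKM in the parent libraries, against 17.7 and 17.4 FPKM over the 16 mitochondrial genes. KARS was the highest cytosolic gene, at a mean of 176 FPKM, and CARS the lowest, at 36.2 FPKM. IARS2, for isoleucine, was the highest mitochondrial gene at 65.7 FPKM, and WARS2, for tryptophan, the lowest at 4.11 FPKM. The ranges of the compartments overlapped through IARS2, which stood above CARS, DARS, LARS and WARS. When each mitochondrial enzyme was set beside the cytosolic enzyme for the same amino acid, the cytosolic gene had the higher FPKM in all 16 pairs, by 1.49-fold for CARS over CARS2 to 19.3-fold for TARS over TARS2. FARSA, the catalytic subunit of the cytosolic phenylalanine enzyme, was set beside FARS2, and EPRS, which joins both glutamate and proline, beside EARS2 and PARS2. The lowest mitochondrial genes rest on few reads, an estimated 77 for PARS2, 85 for WARS2 and 110 for TARS2 in their lowest libraries if the longest annotated transcript is taken.

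**Figure D1:**
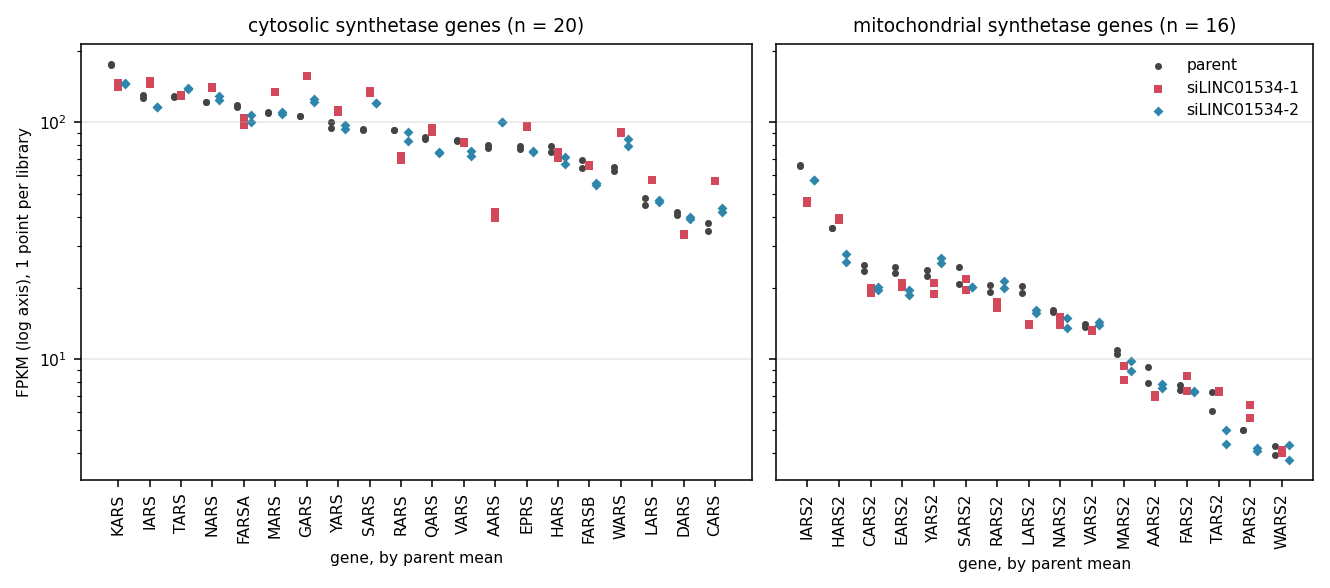
FPKM of the 20 cytosolic (left) and 16 mitochondrial (right) synthetase genes on a log axis, 1 point per library, with genes in order of their parent mean. Cytosolic genes run from 176 FPKM for KARS to 36.2 FPKM for CARS in the parent mean, and mitochondrial genes from 65.7 FPKM for IARS2 to 4.11 FPKM for WARS2.

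The balance between the compartments differed between the siLINC01534 libraries and parent. The summed FPKM of the cytosolic genes was 6.001 and 5.91 times that of the mitochondrial genes in parent, 7.26 and 7.48 times with siLINC01534-1, and 6.86 and 6.63 times with siLINC01534-2. The ratio was higher in each of the 4 siLINC01534 libraries than in either parent library. The mitochondrial sum was 304 and 310 FPKM in parent and 264 to 275 FPKM in the siLINC01534 libraries. A sum weighs the highest genes most, and IARS2 alone had means of 65.7 FPKM in parent, 46.3 FPKM with siLINC01534-1 and 56.9 FPKM with siLINC01534-2. The cytosolic sum was 1827 and 1832 FPKM in parent, 1943 and 1975 FPKM with siLINC01534-1, and 1833 and 1820 FPKM with siLINC01534-2. Parent thus stood apart from both siLINC01534 groups in the mitochondrial sum, and these overlapped each other, while in the cytosolic sum the siLINC01534-1 libraries lay above parent and the siLINC01534-2 libraries lay on both sides of it. GARS and KARS are counted here as cytosolic, although both also serve the mitochondrion.

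The 12203 genes were then fitted with limma as log2(FPKM + 1), and a gene was called when its Benjamini-Hochberg adjusted p was under 0.05. When the average of the siRNA groups was compared with parent, 20 of the 36 synthetase genes were called, where 37.2% of all genes tested were called. The median size of the log2 fold change, whatever its direction, was 0.146 over the 36 genes and 0.162 over all genes tested. The share over all genes is not matched for level. Between the parent libraries the median difference (log2) was 0.035 over the cytosolic genes, 0.078 over the mitochondrial genes and 0.073 over all genes. Of the 20 cytosolic genes, 8 rose, 7 fell and 5 did not pass. The 7 include AARS, which fell with siLINC01534-1 and was called higher with siLINC01534-2. Of the 16 mitochondrial genes, 0 rose, 5 fell and 11 did not pass. The 5 include HARS2 (-0.14, adjusted p = 0.0486), which fell with siLINC01534-2 only. Its siLINC01534-1 libraries lay above both parent libraries, as described below. Among all genes tested, 17.1% rose and 20.1% fell. The median log2 fold change was 0.05 over the cytosolic genes and -0.14 over the mitochondrial genes, beside -0.0068 over all genes tested. By libraries, 6 cytosolic genes and 0 mitochondrial genes were higher in all 4 siLINC01534 libraries than in both parent libraries, as were 19% of all genes. The 6 were CARS, GARS, NARS, SARS, TARS and WARS. TARS was among them by a narrow margin, at 129.16 FPKM in parent replicate 2 and 129.39 FPKM in siLINC01534-1 replicate 1. Lower in all 4 were 5 cytosolic genes (DARS, FARSA, KARS, RARS and VARS) and 7 mitochondrial genes (AARS2, CARS2, EARS2, IARS2, LARS2, MARS2 and NARS2), as were 19.3% of all genes. The 2-fold limit that the study used was passed by 0 of the 36, and by 2.78% of all genes tested. With each siRNA alone it was also passed by 0 of the 36, where 5.84% of all genes passed it with siLINC01534-1 and 2.61% with siLINC01534-2. The count of 20 leans on single libraries. It was 12 without parent replicate 1 and 11 without parent replicate 2, and the sample left alone in its group is then assumed to vary like the others.

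With siLINC01534-1, 23 of the 36 genes were called against parent, where the share was 46.3% over all genes tested. The median size of the change was 0.218 over the 36 genes and 0.224 over all genes tested. Of the cytosolic genes 11 rose and 5 fell, and of the mitochondrial genes 0 rose and 7 fell, where 21.8% of all genes rose and 24.5% fell. With siLINC01534-2, 17 genes were called, where the share was 22.8% over all genes tested. Here the median size of the change was 0.167 over the 36 genes and 0.143 over all genes tested. Of the cytosolic genes 6 rose and 5 fell, and of the mitochondrial genes 0 rose and 6 fell, where 11.1% of all genes rose and 11.8% fell. The siLINC01534-2 count is the least stable, at 5 without parent replicate 1, 8 without parent replicate 2, 7 without siLINC01534-2 replicate 1 and 5 without siLINC01534-2 replicate 2. Both comparisons use the same parent libraries, so a fluctuation there enters both. Between the siRNAs, 22 of the 36 genes differed, 15 higher and 7 lower with siLINC01534-1, where the shares of all genes were 41.8%, 19.5% and 22.3%. A called difference over 0.5 on the log2 scale was found for 3 genes, AARS, HARS2 and TARS2, and for 13.3% of all genes.

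**Figure D2:**
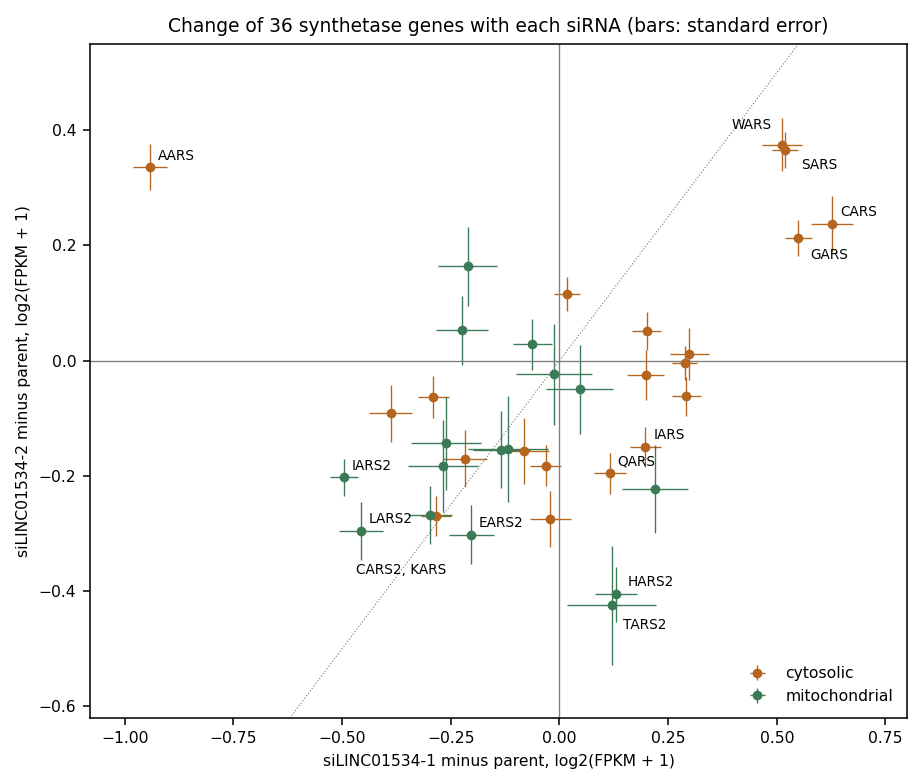
Difference from parent in log2(FPKM + 1) with siLINC01534-1 (horizontal) and siLINC01534-2 (vertical) for the 36 synthetase genes, with standard errors, coloured by compartment, and with a dotted line where both are equal. Both axes share the parent libraries. CARS, GARS, SARS and WARS stand at the upper right, and AARS lies alone at -0.94 and 0.34.

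The cytosolic genes CARS, GARS, SARS and WARS rose with each siRNA. CARS, for cysteine, was at 34.8 and 37.5 FPKM in parent, 56.3 and 56.4 FPKM with siLINC01534-1, and 43.7 and 41.9 FPKM with siLINC01534-2. The 4 siLINC01534 libraries all lay above both parent libraries, and those of siLINC01534-1 above those of siLINC01534-2. The log2 fold change of CARS was 0.63 (SE 0.048, adjusted p = 0.000416) with siLINC01534-1 and 0.24 (SE 0.048, adjusted p = 0.0228) with siLINC01534-2. The latter call was kept in only 1 of the 6 fits that leave out a library, without parent replicate 2, and its adjusted p reached 0.101 in the others.

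GARS, the glycine enzyme, was at 106 and 107 FPKM in parent. It was at 157 and 156 FPKM with siLINC01534-1 and at 122 and 125 FPKM with siLINC01534-2, again without overlap between the 3 groups. Its log2 fold change was 0.55 (SE 0.031, adjusted p = 0.000177) and 0.21 (SE 0.031, adjusted p = 0.00954), respectively. With siLINC01534-2 its call was lost without parent replicate 1, parent replicate 2 or siLINC01534-2 replicate 2, at an adjusted p of up to 0.0552. Each siRNA moved CARS and GARS by a different amount, with siLINC01534-1 higher by 0.39 (adjusted p = 0.0025) for CARS and 0.34 (adjusted p = 0.00101) for GARS.

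SARS, for serine, also charges the tRNA of selenocysteine. It was at 93.9 and 93.3 FPKM in parent, 136 and 133 FPKM with siLINC01534-1, and 120.7 and 121 FPKM with siLINC01534-2, without overlap between groups. The change of SARS on the log2 scale was 0.52 (SE 0.031, adjusted p = 0.000201) and 0.37 (SE 0.031, adjusted p = 0.00222). WARS, for tryptophan, is also known as an interferon-induced gene. It was at 62 and 64.7 FPKM in parent, 90.2 and 91.4 FPKM with siLINC01534-1, and 79.6 and 85.4 FPKM with siLINC01534-2. All 4 siLINC01534 values exceeded the parent values. On the log2 scale WARS changed by 0.51 (SE 0.046, adjusted p = 0.000734) and 0.37 (SE 0.046, adjusted p = 0.00612). SARS and WARS were called with each siRNA in all 6 fits that leave out a library. The siRNAs differed in SARS, by 0.15 (adjusted p = 0.0123), and for WARS the difference of 0.14 (SE 0.046) did not pass (adjusted p = 0.0612).

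AARS, the alanine enzyme, stood apart from the other members. Its gene lies on chromosome 16 of GRCh37, from 70285886 to 70323610 on the minus strand. AARS was at 77.9 and 80.3 FPKM in parent, 39.6 and 41.8 FPKM with siLINC01534-1, and 100.1 and 99.9 FPKM with siLINC01534-2. The 3 groups did not overlap, with the siLINC01534-1 libraries lowest and the siLINC01534-2 libraries highest. The gene fell by 0.94 on the log2 scale with siLINC01534-1 (SE 0.040, adjusted p = 8.67e-05), which left 0.515 of the parent level, and rose by 0.34 with siLINC01534-2 (SE 0.040, adjusted p = 0.00558), to 1.26 times the parent level. The difference between the siRNAs was -1.28 (SE 0.040, adjusted p = 6.58e-05), in size the greatest among the 36 genes. These calls were kept in all 6 fits that leave out a library. For the mean of both siRNAs AARS came out at -0.30 (adjusted p = 0.00237), a value that neither siRNA gives. In the annotation an AARS exon overlaps an exon of DDX19B on the opposite strand. DDX19B was at 14.03 and 16.1 FPKM in parent, 16.6 and 15.9 FPKM with siLINC01534-1, and 12.9 and 12.8 FPKM with siLINC01534-2. Between the siRNAs it differed by 0.32 (adjusted p = 0.0177), in the direction opposite to AARS. Whether the overlap affects the FPKM of AARS was not tested.

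The members of the multisynthetase complex were read as a group, without a test of the complex itself. With siLINC01534-1 all 8 passed, 5 higher and 3 lower, beside 46.3% of all genes tested. EPRS (0.29), LARS (0.30), MARS (0.29), IARS (0.20) and QARS (0.12) rose, and DARS (-0.29), KARS (-0.28) and RARS (-0.39) fell, as log2 fold changes. QARS, for glutamine, had the weakest of these calls (adjusted p = 0.0442), and it was lost in each of the 6 fits that leave out a library. With siLINC01534-2, 0 of the 8 rose and 3 fell, beside 22.8% of all genes called. These were IARS (-0.15, adjusted p = 0.0336), QARS (-0.20, adjusted p = 0.0179) and KARS (-0.27, adjusted p = 0.00681), and of the same 6 fits the call of IARS was kept in 0 and that of QARS in 2. The siRNAs differed from each other in 7 of the 8, beside 41.8% of all genes tested, and KARS was the exception.

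EPRS may stand for the members that rose with siLINC01534-1. This bifunctional enzyme was at 79.7 and 77.1 FPKM in parent, 95.5 and 96.9 FPKM with siLINC01534-1, and 75.3 and 74.8 FPKM with siLINC01534-2. Only the siLINC01534-1 libraries lay above parent, and both siLINC01534-2 libraries lay below it. The siLINC01534-1 values exceeded the siLINC01534-2 values by 0.35 (SE 0.034, adjusted p = 0.00112). IARS, for isoleucine, went opposite ways, at 130.8 and 126.4 FPKM in parent, 145 and 149.8 FPKM with siLINC01534-1, and 115.5 and 116 FPKM with siLINC01534-2.

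RARS, for arginine, fell with siLINC01534-1 from 92.5 and 92.8 FPKM to 69.3 and 71.9 FPKM, and was at 90.7 and 83.3 FPKM with siLINC01534-2. MARS, for methionine, was at 109.7 and 110.1 FPKM in parent, 135 and 134 FPKM with siLINC01534-1, and 110.3 and 109 FPKM with siLINC01534-2. MARS overlaps DDIT3, the gene of the stress factor CHOP, on the opposite strand. DDIT3 was at 17.5 and 19.5 FPKM in parent, at 73.5 and 76.7 FPKM with siLINC01534-1 and at 78.5 and 90.2 FPKM with siLINC01534-2, so it was higher in all 4 libraries while MARS was higher only with siLINC01534-1. Whether strand was used in counting is not given in the sources used here.

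KARS, the lysine enzyme and the other gene that serves both compartments, fell with each siRNA. It was at 177 and 174 FPKM in parent, 141 and 147 FPKM with siLINC01534-1, and 147 and 145 FPKM with siLINC01534-2. Every siLINC01534 value was below both parent values. The changes of KARS were -0.28 (SE 0.035, adjusted p = 0.00195) and -0.27 (SE 0.035, adjusted p = 0.00681), and the difference between the siRNAs was -0.015 (SE 0.035, adjusted p = 0.752). GARS and KARS, which share the double role, thus moved in opposite directions.

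The remaining cytosolic genes passed with 1 siRNA or with neither. NARS (0.20) and YARS (0.20) rose and FARSA (-0.22) fell with siLINC01534-1 and did not pass with siLINC01534-2. TARS (0.12) rose, and FARSB (-0.27) and VARS (-0.18) fell with siLINC01534-2 and did not pass with siLINC01534-1, while HARS passed with neither. The difference between the siRNAs was called for NARS, YARS, TARS, FARSB and VARS, and for FARSA it was -0.05 (SE 0.050, adjusted p = 0.483). TARS lost both its siLINC01534-2 call and its call between the siRNAs in each of the 6 fits that leave out a library. The siLINC01534-1 calls of FARSA and YARS and the siLINC01534-2 calls of FARSB and VARS were each kept in 3 of the 6. FARSA and FARSB are the subunits of a single enzyme, and FARSB differed between the siRNAs by 0.25 (adjusted p = 0.0101).

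**Figure D3:**
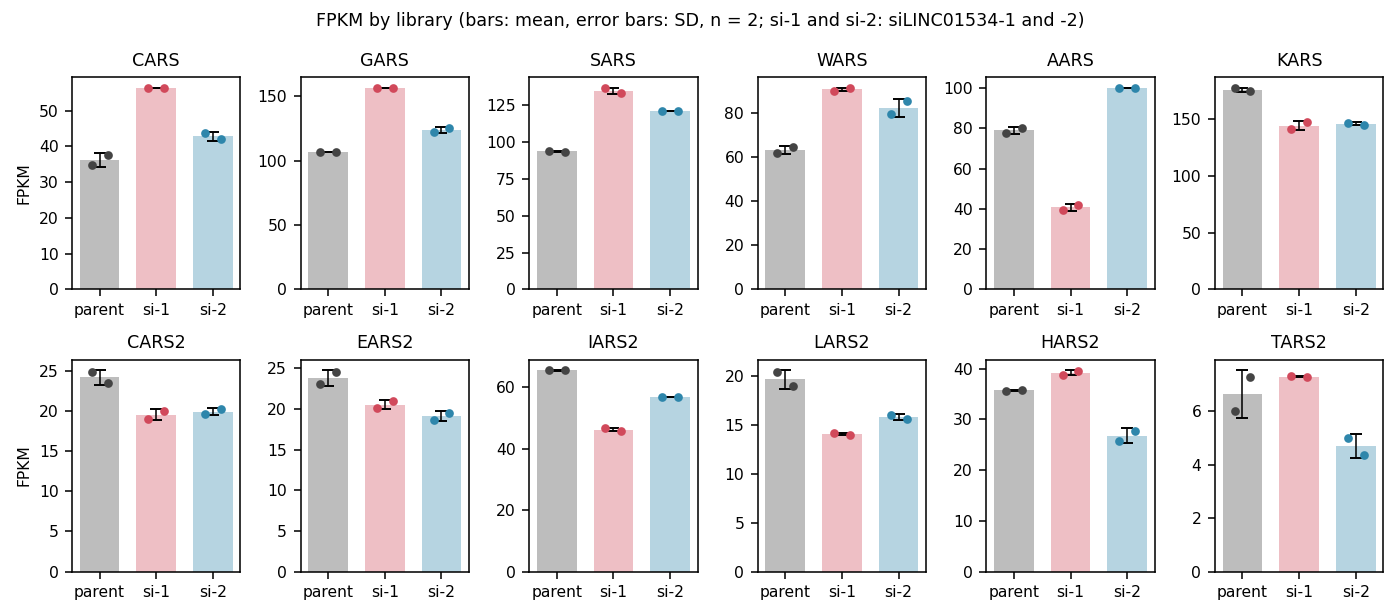
FPKM of 12 synthetase genes in the 6 libraries (points), with the group mean (bars from 0) and SD (error bars, n = 2). CARS, GARS, SARS and WARS are above parent in all 4 siLINC01534 libraries, AARS is at 39.6 and 41.8 FPKM with siLINC01534-1 against 100.1 and 99.9 FPKM with siLINC01534-2, and CARS2, EARS2, IARS2 and LARS2 are below parent in all 4.

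The promoters of the members were searched for the letters TGATGNAA on both strands, the core of the element that ATF4 and its C/EBP partners bind. RefSeq windows of 300 bases (GRCh38.p14), from 250 bases before to 50 bases after each annotated start, were held for 30 of the 36 genes. AARS2, DARS, LARS, VARS, VARS2 and YARS had none. The letters were present in 7 of 16 cytosolic genes and in 1 of 14 mitochondrial genes, YARS2. They were present in 3.62% of all 35116 windows, and in 2.42% of the 9009 tested genes with a window under the same symbol. The 7 cytosolic genes were AARS, CARS, GARS, IARS, MARS, NARS and TARS. Their sites are shown because the letters recur near the start of genes for 7 different amino acids. Each line gives 60 bases on the strand of the gene with the match in capitals, and all but that of NARS are read from the opposite strand.

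AARS: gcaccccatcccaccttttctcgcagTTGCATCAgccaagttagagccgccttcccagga
CARS: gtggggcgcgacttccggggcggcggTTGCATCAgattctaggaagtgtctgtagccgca
GARS: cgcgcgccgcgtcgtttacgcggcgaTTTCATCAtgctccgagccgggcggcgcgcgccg
IARS: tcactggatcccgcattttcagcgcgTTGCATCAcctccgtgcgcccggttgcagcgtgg
MARS: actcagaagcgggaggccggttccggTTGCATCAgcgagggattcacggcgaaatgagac
NARS: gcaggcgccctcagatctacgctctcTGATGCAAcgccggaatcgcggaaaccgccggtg
TARS: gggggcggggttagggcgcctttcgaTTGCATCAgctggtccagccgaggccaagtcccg

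In GRCh38.p14 these stretches lie at chr16:70289660-70289719 for AARS, chr11:3057392-3057451 for CARS, chr7:30594819-30594878 for GARS and chr9:92293677-92293736 for IARS. Those of MARS, NARS and TARS lie at chr12:57488038-57488097, chr18:57621789-57621848 and chr5:33440941-33441000. AARS, CARS, IARS and NARS are on the minus strand and GARS, MARS and TARS on the plus strand. Counted from the annotated start, the match begins at -187 in AARS, -33 in GARS, -13 in IARS, -4 in MARS, -2 in CARS, 2 in TARS and 14 in NARS. It is a match of letters, and binding was not measured. Genes with the letters did not share 1 response. With siLINC01534-1, CARS, GARS, IARS, MARS and NARS rose, AARS fell and TARS did not pass. With siLINC01534-2, AARS, CARS, GARS and TARS rose, IARS fell, and MARS and NARS did not pass. SARS and WARS, which rose with each siRNA, hold no match in their windows, and no match says only that these letters are not in these bases.

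Further letters were searched in the same windows. TGACGTCA, the full cAMP response element, was found in 0 of the 16 cytosolic and 0 of the 14 mitochondrial genes. It was found in 1.85% of all windows and in 4.05% of the tested genes. CACGTG, the palindromic E-box bound by MYC and related factors, was found in IARS and in 3 of the 14 mitochondrial genes, CARS2, EARS2 and MARS2, beside 7.26% of all windows and 12.9% of the tested genes. The stretches of CARS2 and EARS2 are shown because both genes fell with each siRNA, as described next, and the capitals mark CACGTG. They were picked by that outcome. The windows of IARS2 and LARS2, which also fell with each siRNA, do not hold these letters, and IARS, whose window does, rose with siLINC01534-1.

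CARS2: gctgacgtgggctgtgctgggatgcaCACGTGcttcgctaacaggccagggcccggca
EARS2: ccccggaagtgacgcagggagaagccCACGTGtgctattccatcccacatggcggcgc

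In GRCh38.p14 they lie on the minus strand, at chr13:110706487-110706544 and chr16:23557334-23557391. These motifs were chosen and searched after earlier results of these data were known, and the counts are a description.

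Among the mitochondrial genes, CARS2, EARS2, IARS2 and LARS2 fell with each siRNA, and no mitochondrial gene was called higher than parent in the fit reported here. HARS2 was called higher with siLINC01534-1 when libraries were centred on the median or quantile normalized, when only the groups compared were fitted, and without either siLINC01534-2 library, and PARS2 was without the variance trend. IARS2, for isoleucine, was at 65.8 and 65.5 FPKM in parent, 46.7 and 45.8 FPKM with siLINC01534-1, and 56.9 and 56.9 FPKM with siLINC01534-2. The 3 groups were apart, with parent highest and siLINC01534-1 lowest. IARS2 changed by -0.50 (SE 0.032, adjusted p = 0.000262) and -0.20 (SE 0.032, adjusted p = 0.0124), and the siRNAs differed by -0.29 (adjusted p = 0.00175).

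LARS2, for leucine, was at 20.4 and 19 FPKM in parent, 14.1 and 14 FPKM with siLINC01534-1, and 16.1 and 15.6 FPKM with siLINC01534-2. Its log2 fold change was -0.46 (SE 0.051, adjusted p = 0.00146) and -0.30 (SE 0.051, adjusted p = 0.0151). The order of the groups was that of IARS2, but the difference between the siRNAs, -0.16 (SE 0.051), did not pass (adjusted p = 0.0518).

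CARS2, for cysteine, was at 24.8 and 23.5 FPKM in parent, 19 and 20 FPKM with siLINC01534-1, and 19.6 and 20.2 FPKM with siLINC01534-2. EARS2, whose product charges the mitochondrial tRNAs of both glutamate and glutamine, was at 23.1 and 24.5 FPKM in parent, 20.1 and 20.9 FPKM with siLINC01534-1, and 18.7 and 19.5 FPKM with siLINC01534-2. For both genes every siLINC01534 library lay below both parent libraries, and the siRNAs overlapped in CARS2, while EARS2 was lower in both siLINC01534-2 libraries than in either siLINC01534-1 library. The log2 fold change with siLINC01534-1 and siLINC01534-2 was -0.30 (SE 0.050) and -0.27 (SE 0.050) for CARS2 and -0.20 (SE 0.052) and -0.30 (SE 0.052) for EARS2. The siLINC01534-2 calls of CARS2, EARS2, IARS2 and LARS2 (adjusted p of 0.0192, 0.0149, 0.0124 and 0.0151) rest on few libraries. Those of CARS2, EARS2 and IARS2 were lost in 4 of 6 fits that leave out a library and that of LARS2 in 3 of 6, with parent replicate 1, siLINC01534-2 replicate 1 and siLINC01534-2 replicate 2 common to all 4 genes. The siLINC01534-1 calls of CARS2, IARS2 and LARS2 were kept in all 6, and that of EARS2 in 3. In the annotation an EARS2 exon overlaps an exon of GGA2 on the same strand. Whether this affects the FPKM of EARS2 was not tested.

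HARS2 and TARS2 fell with siLINC01534-2 and did not pass with siLINC01534-1. HARS2, for histidine, was at 35.7 and 35.8 FPKM in parent, 38.8 and 39.6 FPKM with siLINC01534-1, and 25.7 and 27.8 FPKM with siLINC01534-2. Its siLINC01534-1 libraries were the highest and its siLINC01534-2 libraries the lowest, without overlap. The log2 fold change was 0.13 (SE 0.048, adjusted p = 0.0734) with siLINC01534-1 and -0.41 (SE 0.048, adjusted p = 0.0054) with siLINC01534-2, and the siRNAs differed by 0.54 (adjusted p = 0.000915). HARS2 starts beside HARS on the opposite strand and their exons overlap in the annotation. An exon of HARS2 also overlaps an exon of ZMAT2, on the same strand. Whether either overlap affects the FPKM of HARS2 was not tested. HARS was at 74.8 and 79.3 FPKM in parent, 70.6 and 75 FPKM with siLINC01534-1, and 71.7 and 66.4 FPKM with siLINC01534-2, and did not pass in any comparison.

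TARS2, for threonine, was at 6.02 and 7.29 FPKM in parent, 7.30 and 7.29 FPKM with siLINC01534-1, and 5.01 and 4.38 FPKM with siLINC01534-2. Parent replicate 2 lay at the level of the siLINC01534-1 libraries, parent replicate 1 lay between the siLINC01534 groups, and the siLINC01534-2 libraries were the lowest. The siLINC01534-2 call (-0.42, SE 0.10, adjusted p = 0.0378) was lost in each of the 6 fits that leave out a library. The siRNAs differed by 0.55 (SE 0.10, adjusted p = 0.0101), a call kept in 3 of those 6 fits and lost without siLINC01534-1 replicate 1, siLINC01534-1 replicate 2 or siLINC01534-2 replicate 2. AARS2, MARS2 and RARS2 fell with siLINC01534-1 and did not pass with siLINC01534-2, at adjusted p-values of 0.0449, 0.0412 and 0.0276 for siLINC01534-1, and these calls were lost in most fits that leave out a library. PARS2 and YARS2 differed between the siRNAs, by 0.44 and -0.37, without a call against parent. FARS2, NARS2, SARS2, VARS2 and WARS2 passed in no comparison.

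Enzyme class was set beside these changes because the rule for the members did not use it. The 9 mitochondrial class I genes had a median log2 fold change of -0.22 with siLINC01534-1, with 6 lower and 0 higher by the test, beside 24.5% and 21.8% of all genes. The 7 mitochondrial class II genes had a median of 0.05, with 1 lower and 0 higher. With siLINC01534-2 the medians were -0.18 and -0.15, and 4 of the 9 and 2 of the 7 were lower, beside 11.8% of all genes. CARS2, EARS2, IARS2 and LARS2 are all of class I, but they were picked because they fell with each siRNA. Their counting error, estimated from the library with fewest reads, was 2.7% for IARS2 to 4.3% for CARS2. It was 4.1% for NARS2 to 11.4% for PARS2 among the mitochondrial class II genes, and 10.9% for WARS2 of class I. Small changes are harder to call in genes with few reads. Among the cytosolic genes, class I had a median of 0.20 with siLINC01534-1 (7 higher, 1 lower, of 9) and class II -0.05 (3 higher, 4 lower, of 10). With siLINC01534-2 the medians were -0.03 and -0.0062. Here 2 of the 9 were higher and 3 lower, and 4 of the 10 higher and 2 lower. Among all genes 11.1% were higher and 11.8% lower. The signs of these medians were not checked under other scalings. Whether the classes differ was not tested. EPRS holds a domain of each class and was left out of both.

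By amino acid, the cytosolic gene had the more positive change in 11 of 16 pairs with siLINC01534-1 and in 12 of 16 with siLINC01534-2. The widest gap with siLINC01534-1 was that of cysteine, where CARS was at 0.63 and CARS2 at -0.30, and the ratio of CARS to CARS2 FPKM was 1.49 in parent, 2.89 with siLINC01534-1 and 2.15 with siLINC01534-2. For leucine, the ratio of LARS to LARS2 was 2.35, 4.06 and 2.95, respectively. For isoleucine it was 1.96, 3.19 and 2.03. For alanine the ratio of AARS to AARS2 moved in opposite directions with the siRNAs, at 9.19, 5.82 and 13.03. EPRS stands in 2 of the 16 pairs, so the pairs are not independent.

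**Figure D4:**
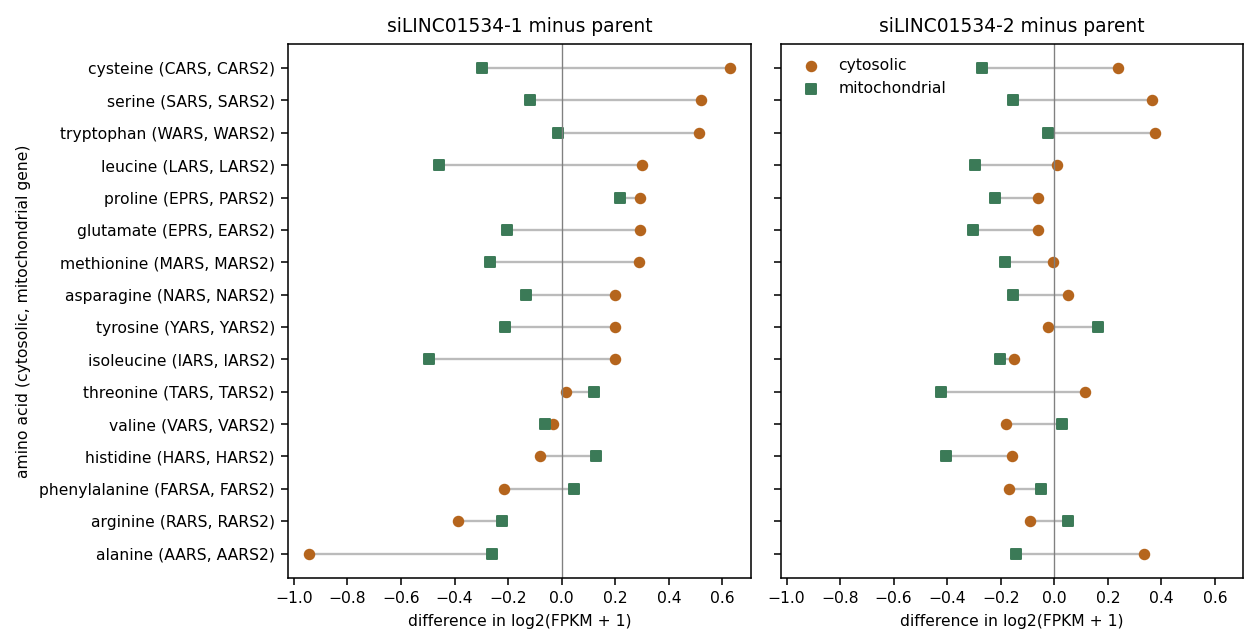
Difference from parent in log2(FPKM + 1) of the cytosolic (circles) and mitochondrial (squares) synthetase gene for each of 16 amino acids, with siLINC01534-1 (left) and siLINC01534-2 (right), joined by a line. The circle lies to the right of the square in 11 of 16 rows on the left and in 12 of 16 on the right, and alanine has its circle at -0.94 on the left and at 0.34 on the right.

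Partners of tRNA charging were described from lists of genes. Of the 3 scaffold genes of the multisynthetase complex, only AIMP2 passed with siLINC01534-1, where it fell, and 0 of 3 passed with siLINC01534-2. Among all genes tested, 46.3% and 22.8% were called, respectively. AIMP2 was at 31.8 and 32.4 FPKM in parent, 23.1 and 24.4 FPKM with siLINC01534-1, and 30.5 and 34.5 FPKM with siLINC01534-2. AIMP2 had a log2 fold change of -0.42 (SE 0.067, adjusted p = 0.00494) with siLINC01534-1 and 0.01 (SE 0.067) with siLINC01534-2.

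Of 9 cytosolic partners, 4 rose and 0 fell with siLINC01534-1, and 2 rose and 1 fell with siLINC01534-2, where 46.3% and 22.8% of all genes were called. XPOT, the export receptor that carries tRNA out of the nucleus, and EEF1A1, which delivers charged tRNA to the ribosome, rose with each siRNA. XPOT was at 51.3 and 48.8 FPKM in parent, 75.3 and 72.3 FPKM with siLINC01534-1, and 62.1 and 63.7 FPKM with siLINC01534-2. The log2 fold change of XPOT was 0.55 (SE 0.043, adjusted p = 0.000444) and 0.32 (SE 0.043, adjusted p = 0.0073), and that of EEF1A1 0.47 (SE 0.038) and 0.26 (SE 0.038).

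Of 5 mitochondrial partners, 0 rose and 0 fell with siLINC01534-1, and 0 rose and 1 fell with siLINC01534-2, beside the same shares of all genes. It was TUFM, the mitochondrial elongation factor that delivers charged tRNA to the ribosome of the organelle. TUFM was at 255 and 260.4 FPKM in parent, 246 and 244 FPKM with siLINC01534-1, and 236 and 228 FPKM with siLINC01534-2. All 4 siLINC01534 libraries lay below parent, and the log2 fold change of TUFM was -0.07 (SE 0.033, adjusted p = 0.126) with siLINC01534-1 and -0.15 (SE 0.033, adjusted p = 0.0309) with siLINC01534-2.

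ATF4 and 7 genes of the amino acid response were read beside the synthetases. All 8 rose with siLINC01534-1, with a median log2 fold change of 1.19, where 21.8% of all genes rose. With siLINC01534-2, 7 rose, with a median of 0.68, where 11.1% of all genes rose. ASNS, the asparagine synthetase gene, rose by 1.01 (SE 0.052) with siLINC01534-1 and 0.43 (SE 0.052) with siLINC01534-2, beside 0.63 and 0.24 for CARS. CHAC1 rose by 1.39 and 1.44 and did not differ by the test between the siRNAs (difference -0.05, SE 0.054, adjusted p = 0.501). The lowest changes of the list were those of PHGDH (0.24) and PSAT1 (0.63) with siLINC01534-1, and of PSAT1 (0.03, not called), ATF4 (0.13) and PHGDH (0.17) with siLINC01534-2. The changes of the 36 synthetase genes ran from -0.94 to 0.63 with siLINC01534-1 and from -0.42 to 0.37 with siLINC01534-2.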

How the data were processed

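RNA-seq libraries of HCT116 cells were prepared by the authors from poly(A) RNA with a stranded kit and sequenced as 75-base single-end reads. The authors mapped the reads to hg19 with TopHat 2.0.13, Bowtie2 2.2.3 and SAMtools 0.1.19, and deposited FPKM per gene symbol from Cuffnorm (Cufflinks 2.2.1). The annotation is not given in the sources used here, and the methods give 3 cultures per group where the labels give 2. Read counts were not used here. FPKM were transformed as log2(FPKM + 1), which understates the change of low genes. The 12203 genes that averaged 1 FPKM or more were fitted with limma 3.58.1 in R 4.3.3 (lmFit, contrasts.fit, eBayes with trend), with 1 mean per group over all 6 libraries, two-sided, with Benjamini-Hochberg adjustment and a threshold of 0.05. Parent was compared with the average of the siRNA groups and with each of them, and the siRNA groups with each other. The fit was tried on simulated data in which 200 genes changed 2-fold on the log2(FPKM + 1) scale. That is more than any member changed against parent, so smaller changes were not tried. Lists were described by counts and medians, without a p. A gene of the list of mitochondrial partners is not reported here, and its counts are over the other genes.

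The members, lists and motifs were chosen with earlier results of these data known. All 36 members are named; per-library values are given for those called in the same direction with each siRNA, those whose siRNAs differ by a call over 0.5 (log2), GARS and KARS, and a few further genes chosen after their values were seen. Depth was estimated from genes with 1 annotated transcript and a value above 0 in at most 2 libraries, taken as 1 read, with 200 nt taken off the length. Positions are from GENCODE on GRCh37, where exons of 21 of the 36 genes overlap another gene. For 5 of these, EARS2, HARS, HARS2, SARS2 and VARS2, an overlap is on the same strand. Promoter windows are from RefSeq. Python 3.11.15, pandas 2.3.3 and matplotlib 3.10.9 were used. Alternatives were another pseudocount, other filters, a replicate block, fits without the trend or with only the groups compared, other scalings, and each library left out in turn.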

Additional observations from a re-analysis of the deposited data

Results flagged for a closer look

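The 22 synthetase genes below differed between the siRNAs by the test of the difference itself (siLINC01534-1 minus siLINC01534-2, limma, adjusted p under 0.05), where 41.8% of all genes tested did. Among cytosolic genes the log2 difference was -1.28 for AARS, -0.30 for RARS, -0.23 for DARS and -0.099 for TARS, so these were lower with siLINC01534-1. It was 0.15 for NARS, 0.15 for VARS, 0.15 for SARS, 0.22 for YARS, 0.25 for FARSB, 0.29 for LARS, 0.29 for MARS, 0.31 for QARS, 0.34 for GARS, 0.35 for IARS, 0.35 for EPRS and 0.39 for CARS. Among mitochondrial genes it was -0.37 for YARS2, -0.29 for IARS2, -0.28 for RARS2, 0.44 for PARS2, 0.54 for HARS2 and 0.55 for TARS2.

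Differences over 0.5 in size were found for AARS, HARS2 and TARS2. The cytosolic enzymes for alanine, isoleucine and glutamine moved in called and opposite directions with the siRNAs, although the QARS and IARS calls are lost in several fits that leave out a library, as described above. The cause of the differences was not tested.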

How the results depend on the processing

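Leaving out each library in turn gave 11 to 16 calls for both siRNAs against parent (20 with all libraries), 17 to 21 for siLINC01534-1 (23), 5 to 13 for siLINC01534-2 (17) and 15 to 21 between the siRNAs (22). For both siRNAs the median log2 fold change then ran from 0.04 to 0.05 over the cytosolic and from -0.19 to -0.082 over the mitochondrial genes. For siLINC01534-1 these ranges were 0.13 to 0.18 and -0.20 to -0.15, for siLINC01534-2 -0.06 to -0.04 and -0.21 to -0.16, and between the siRNAs 0.15 to 0.18 and -0.061 to 0.011. Quantile normalization moved the cytosolic medians to 0.12 for both siRNAs, 0.25 for siLINC01534-1 and 0.20 between the siRNAs, and turned that of siLINC01534-2 from -0.04 to 0.0015. The cause was not tested. A filter at a mean of 5 FPKM, which drops the lowest genes, moved the mitochondrial median of siLINC01534-1 to -0.20.

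The labels do not say what libraries with the same replicate number share. Their deviations from the group mean correlated at 0.11, 0.03 and -0.05, which cannot show whether a culture or batch was shared. With the replicate number as a block, 17, 20, 14 and 21 genes were called in the 4 comparisons in the order above.

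With 2 libraries a group and no read counts used, calls near the threshold, such as those of QARS, IARS, TARS and TARS2, are the least firm, and the mitochondrial genes with few reads carry the widest counting error.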
